A study of Danio rerio with 6 samples.

Results

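Translation initiation factors are the proteins that load the initiator tRNA and the messenger RNA onto the small ribosomal subunit and then allow the large subunit to join. The transcripts of 60 genes named for them, inhibitors and relatives with other roles included, of 23876 genes in the table, were compared between wild type zebrafish larvae and larvae carrying a mutation in znf469. Members were the genes whose symbol begins with eif and a digit, leaving out the eIF2 kinases named eif2ak, and of several transcripts of a gene the one with the highest mean was taken. They comprised 11 genes with symbols beginning eif2, 16 beginning eif3, 24 beginning eif4 and 9 others (eif1, eif5, eif5a, eif5b and eif6 genes).

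The libraries held polyadenylated RNA from whole larvae at 7 days post fertilization, kept in E3 medium at 28.5 °C. There were 3 libraries of wild type larvae and 3 of larvae homozygous for the znf469-4del allele, which the genotype label calls znf469-KO. Each library came from 1 pool of 50 larvae, and the labels do not say that pools came from separate clutches, so the p-values here speak only of how these pools vary, which may be technical. The gene znf469 is the zebrafish counterpart of ZNF469, a zinc finger gene mutated in brittle cornea syndrome.

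In initiation, the eIF2 trimer carries the initiator tRNA as a complex with GTP, and eIF2B recharges eIF2 with GTP after each round. Stress kinases phosphorylate the alpha subunit of eIF2, which then holds eIF2B and slows translation. The large eIF3 complex bridges the small ribosomal subunit and the mRNA, eIF4E binds the mRNA cap, eIF4G joins eIF4E to the helicase eIF4A, and the 4E-binding proteins block that junction when the kinase mTORC1 is inactive. eIF1 and eIF1A guide the choice of the start codon, eIF5 and eIF5B act when the start codon is met and the large subunit joins, and eIF6 keeps free large subunits from joining early.

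Values are normalized read counts as deposited, and a gene's value is that of 1 annotated transcript. Counting 1 transcript per gene, the libraries held between 8111192 and 9683579 reads. The transcript of znf469 itself was at 233 ± 54.2 in wild type pools and 209.6 ± 23.4 in mutant pools (SD, n = 3 each), with overlapping libraries, so it does not check the labels. The first principal component held 47.3% of the variance and the second 27.2%. On the first, wild type replicate 1 was at -3.1 and the other wild type pools at -49.2 and -63.5. Mutant replicate 2 was at 12.8 and the other mutant pools at 48.4 and 54.5. On the second, the same 2 libraries lay far from their groups, at 60.4 for wild type replicate 1 and -53.0 for mutant replicate 2. They are called here the libraries that stood apart. The pools also differed in the clock gene per3, which was at 564, 88.3 and 86.1 in wild type replicates 1 to 3 and at 354, 95.9 and 518 in mutant replicates 1 to 3. Without both libraries that stood apart, per3 is low in the wild type pools left and high in the mutant pools left. In every fit on those pools, per3 level and genotype cannot be told apart. In bulk RNA from whole larvae, fewer cells of a type and less RNA per cell cannot be told apart. Each of the 11 lists of cell type markers examined had reads, with no marker at 0 in every library. The ovary and egg list was near the floor (summed level 12.3 to 24.7 in wild type and 12.2 to 26.9 in mutant pools). All 4 markers of dividing cells fell (summed level 1236 to 1412 in wild type and 355 to 644 in mutant pools). Some markers of other tissues fell too in limma. In cartilage 2 of 4 fell, col2a1a and col9a1a (log2 fold changes of -3.22 and -3.44), and 1 was positive (acana, 0.04). In liver 2 of 4 fell, tfa and fabp10a (-1.40 and -0.74), and 1 was positive (fgb, 0.04). In epidermis 1 of 4 fell, krt5 (-1.59), and 1 was positive (agr2, 0.26). In erythrocytes 1 of 4 fell, hbbe1.1 (-1.99), and none was positive (0). Of the 4 muscle markers none passed in limma (0), but none was positive (0), and their median was -0.67. The part of these markers in the results below was not tested.

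Of the initiation factor transcripts 5 rose in the mutant: eif2b4, eif3hb, eif4bb, eif4ebp3l and eif6. Of the 59 members tested, 5 rose, none fell (0) and 54 did not pass (limma on log2(value + 1), Benjamini-Hochberg adjusted over 22803 genes, threshold 0.05). Over all genes tested, 2.31% rose and 2.18% fell. Among genes with a mean of 50 or more, a bound that all 59 members reach and that was chosen after the table was opened, 3% rose. The member left out, eif4e1b, had 1 read in wild type replicate 3, 1 read in mutant replicate 3 and 0 in the other libraries. The median log2 fold change of the members, mutant over wild type, was 0.28, beside -0.00 over all genes. It was positive in 52 members and negative in 7, beside 49.9% positive over all genes and 51.4% over those with a mean of 50 or more. At an unadjusted p under 0.05 in limma, 21 members were higher and 2 lower, where 9.03% of all genes were higher and 9.17% lower. No member was called lower with edgeR or DESeq2 either (0 in each, where 2.21% and 3.08% of all genes were). In 24 of the 59 members all 3 mutant libraries lay above all 3 wild type libraries, and in 3 they lay below. That separation was seen upward in 11.6% and downward in 11.8% of all genes, and upward in 13.2% of those with a mean of 50 or more.

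**Figure D1:**
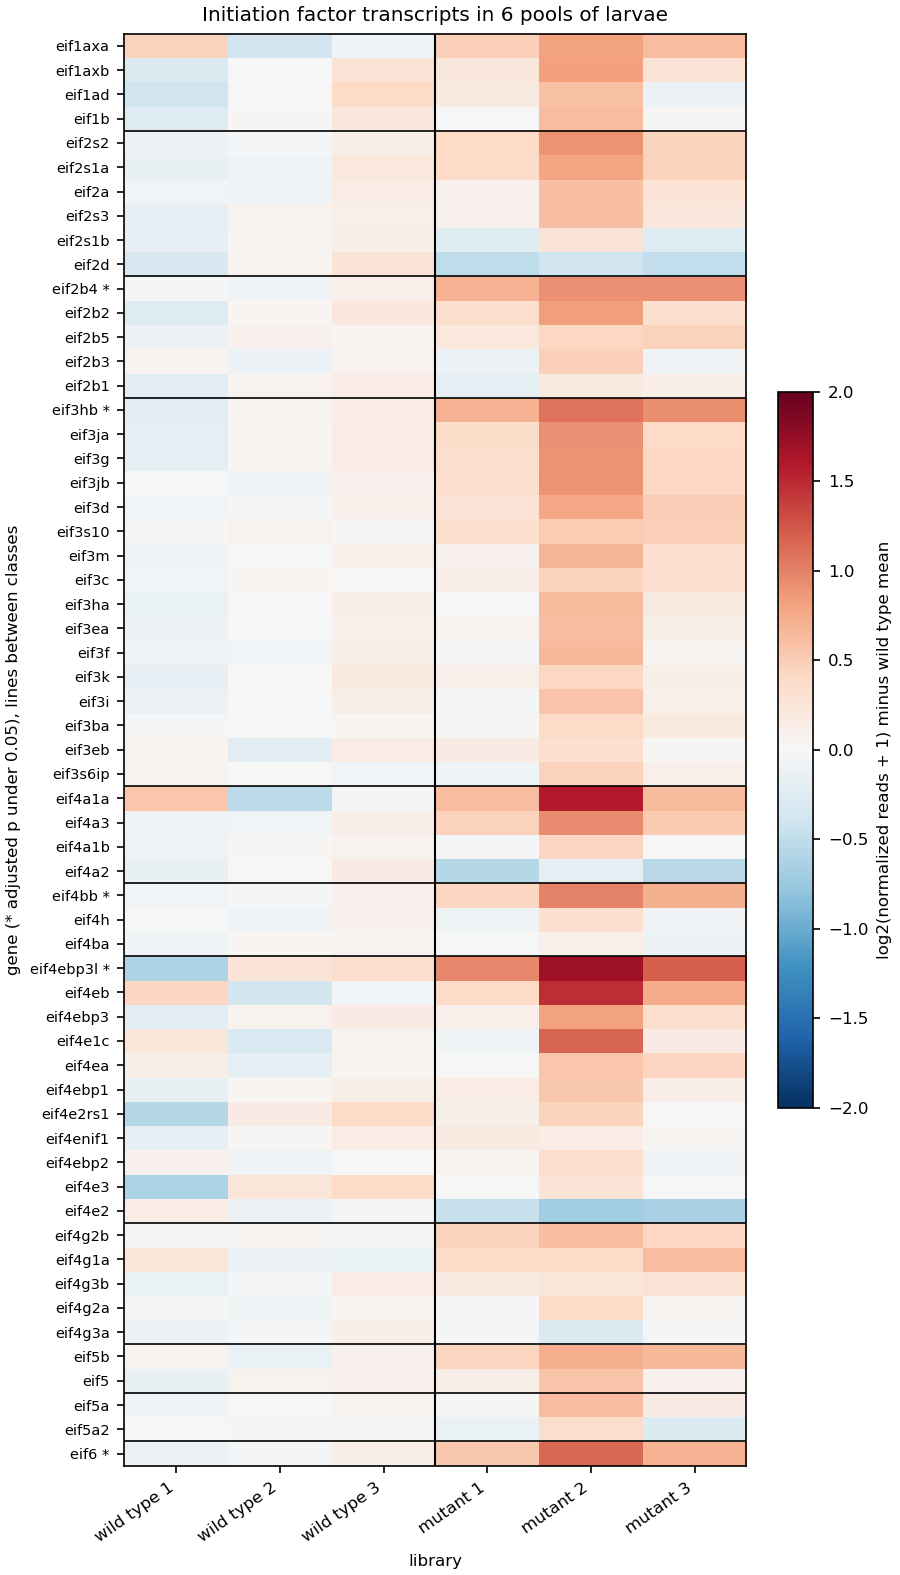
Heat map of 59 initiation factor transcripts (rows, grouped by class) in the 6 libraries (columns); colour gives log2(normalized read count + 1) minus the mean of the 3 wild type libraries, and asterisks mark the 5 genes with adjusted p under 0.05. The column of mutant replicate 2 is the reddest, and 49 of the 59 genes were highest in that library.

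The size of the shift differed between the mutant pools. The median deviation of the 59 members from their wild type mean, on the log2 scale, was 0.11, 0.59 and 0.20 in mutant replicates 1 to 3, and -0.10, -0.00 and 0.11 in wild type replicates 1 to 3. Mutant replicate 1 was thus close to wild type replicate 3, and mutant replicate 2 was far above every other library. Of the 59 members, 49 were highest in mutant replicate 2, or 83.1%, beside 27.3% of all genes. All genes had medians from -0.03 to 0.05 in the 6 libraries. Without mutant replicate 2 the median log2 fold change of the members was 0.14, with 47 positive, beside -0.03 over all genes. Without both libraries that stood apart it was 0.11, with 42 positive, beside -0.06 over all genes.

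Other measures also stood out in mutant replicate 2. The 4 exocrine pancreas markers, none of which passed in limma, summed to 90026 there. They summed to 52105 and 62341 in mutant replicates 1 and 3, and to 40069 to 59898 in wild type. The 4 intestinal markers, none of which passed in limma, summed to 37516 in mutant replicate 2. This sum was 24615 and 26827 in the other mutant pools, and 15644 to 21137 in wild type. The largest part of that sum was chia.2, at 8719 to 12056 in wild type and 17129 to 25488 in mutant pools. Of the others, apoa4b.1 was at a log2 fold change of 0.55, and fabp2 and vil1 overlapped between groups at 0.10 and -0.10. No marker of either list was at 0 in every library. With DESeq2 chia.2 and the pancreas marker cpa5 were called higher (adjusted p = 0.000518 and 0.00647). With edgeR only chia.2 was (adjusted p = 0.0465). Over all genes, 3.35% were called higher with DESeq2 and 2.46% with edgeR. The leukocyte markers summed to 484 in mutant replicate 2, to 240 and 229 in mutant replicates 1 and 3, and to 348 to 391 in wild type. Of the mutant pools, replicate 2 also had the highest sums of muscle, epidermis, erythrocyte, liver, cartilage, dividing cell, and ovary and egg markers. For neuron markers the highest mutant pool was replicate 1. The part of all these lists in the levels of initiation factors was not tested.

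**Figure D2:**
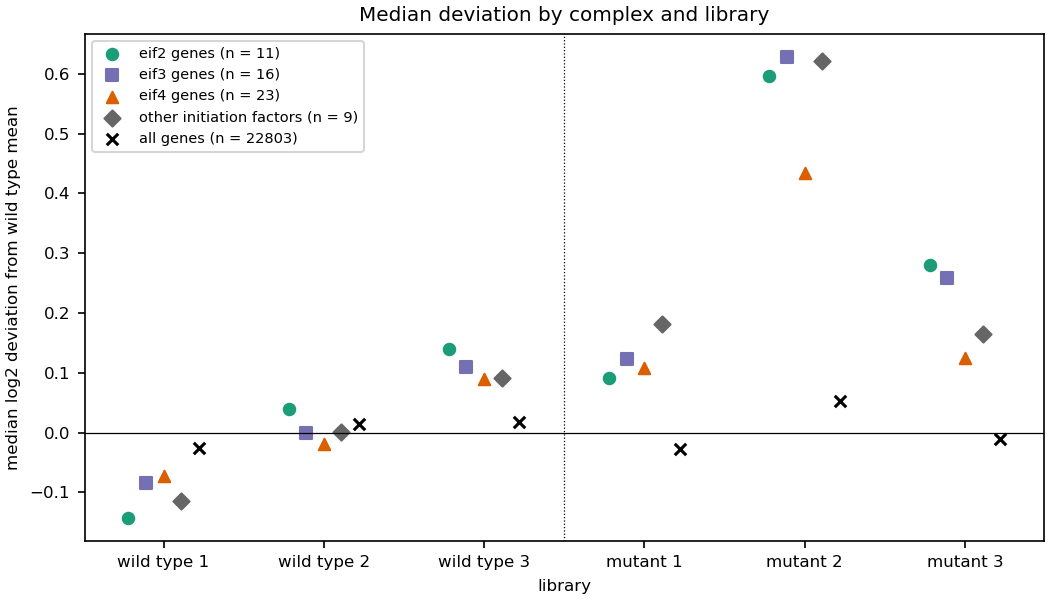
Median deviation from the wild type mean on the log2 scale (vertical axis) in each library (horizontal axis) for eif2, eif3 and eif4 genes, other initiation factors and all genes tested. In mutant replicate 2 the initiation factor groups sit between 0.43 and 0.63, while all genes sit at 0.05.

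As a share of reads over 1 transcript per gene, the 60 members took 1.01%, 1.02% and 1.02% in wild type and 1.21%, 1.35% and 1.32% in mutant replicates 1 to 3. Every mutant library was above every wild type library. A share also depends on the most abundant genes of a library. The muscle actin actc1b ranged from 180715 to 276491 in wild type and from 86568 to 185446 in mutant pools, and its part in the share was not tested.

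The groups made by symbol, which are not all single complexes, had similar medians. The median log2 fold change was 0.32 for the 11 eif2 genes, 0.29 for the 16 eif3 genes, 0.24 for the 23 eif4 genes tested and 0.27 for the 9 others. In the same order 1, 1, 2 and 1 genes rose. The separation of all mutant above all wild type libraries was seen in 5, 7, 8 and 4 genes. Over all genes 2.31% rose and 11.6% had this separation, or 3% and 13.2% of those with a mean of 50 or more. The eif3 genes had the narrowest range of these symbol groups, with all 16 positive and log2 fold changes from 0.16 to 0.90. The eif4 genes spread most widely, from -0.60 to 1.29. Medians of smaller classes differed more, from 0.05 for the 3 eif4b and eif4h genes to 0.44 for eif5 and eif5b. The single gene eif6 was at 0.79. The differences between symbol groups or classes were not tested.

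**Figure D3:**
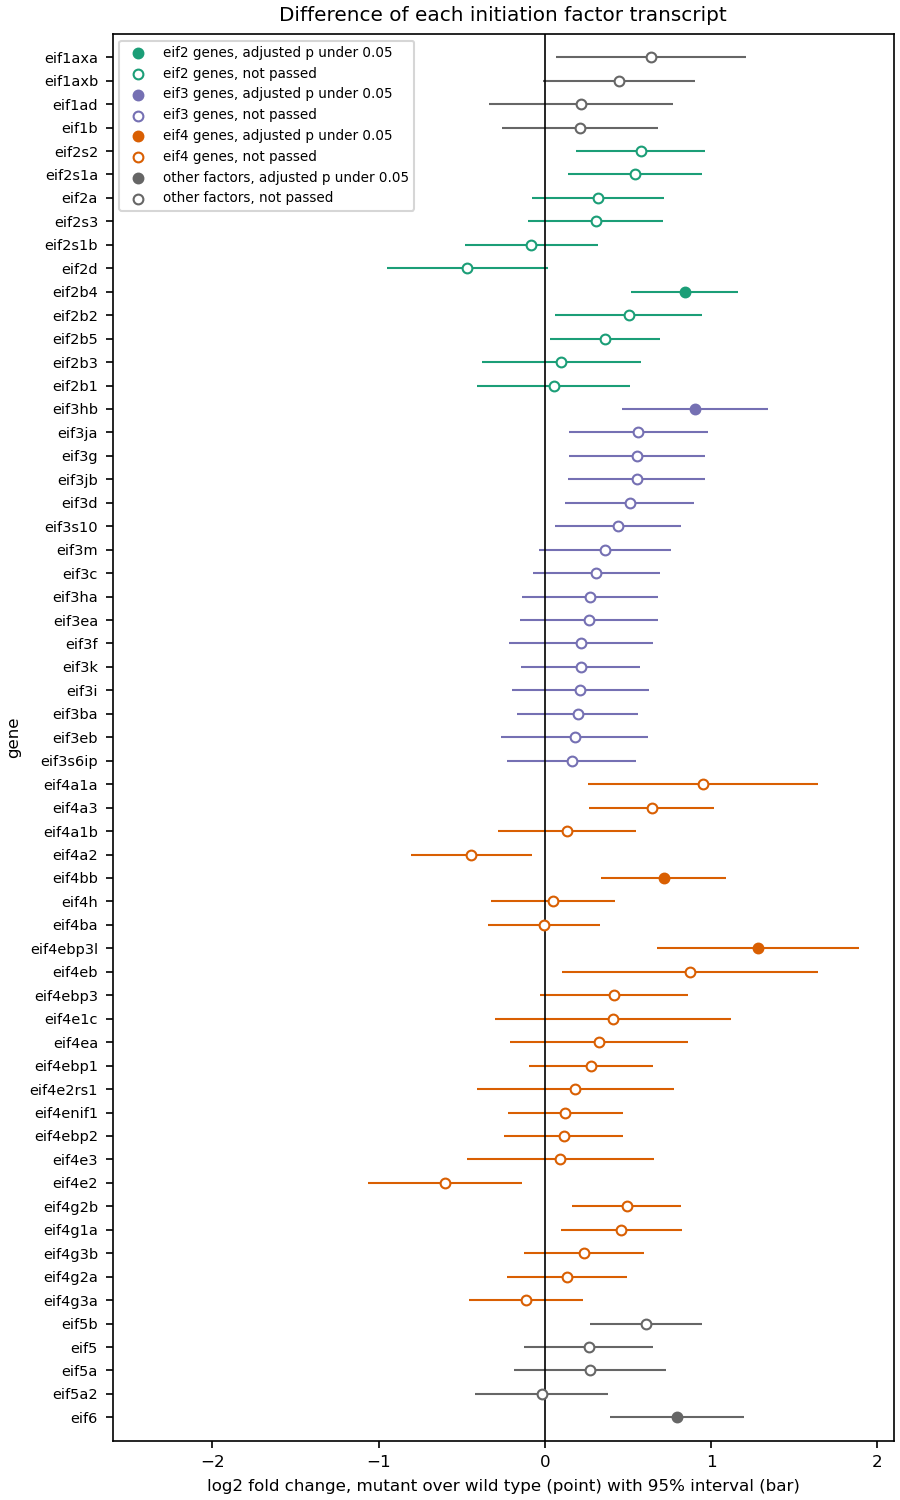
Log2 fold change of each of the 59 transcripts, mutant over wild type (point), with its 95% interval from limma (bar). Points are coloured by symbol group and filled where adjusted p was under 0.05. The 16 eif3 points all lie right of 0, and the eif4 points run from -0.60 to 1.29.

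The transcript with the smallest p-value was eif2b4, the delta subunit of eIF2B and one of the subunits that sense phosphorylated eIF2. Its normalized read counts were 525, 512 and 579.9 in wild type replicates 1 to 3 and 872, 1014 and 1016 in mutant replicates 1 to 3. The lowest mutant pool was well above the highest wild type pool, and mutant replicates 2 and 3 were nearly equal. The rise was 1.80-fold between group means and 0.84 on the log2 scale (SE 0.15, limma, Benjamini-Hochberg adjusted p = 0.0115). The call ended without wild type replicate 2 (limma adjusted p = 0.0919) or mutant replicate 3 (adjusted p = 0.0738). The call was kept when mutant replicate 2 was left out.

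Among the other eIF2B subunits none passed. The beta subunit eif2b2 was at 289.8 ± 48.1 (SD, n = 3) in wild type and 413 ± 85.5 in mutant pools, and the catalytic epsilon subunit eif2b5 at 483 ± 35.1 and 621 ± 54.4. Both had every mutant pool above every wild type pool, with log2 fold changes of 0.50 and 0.36 (limma adjusted p = 0.205 and 0.229). The alpha and gamma subunits eif2b1 and eif2b3 overlapped between groups, at 0.05 (95% interval -0.41 to 0.51) and 0.10 (-0.38 to 0.58). The subunits of this 5-gene class thus differed in how far the groups separated.

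In the eIF2 trimer itself, the beta subunit eif2s2 was at 1332, 1412 and 1586 in wild type and at 1889, 2676 and 1959 in mutant pools. Its groups did not overlap, and its log2 fold change of 0.58 (SE 0.17) missed the threshold (limma adjusted p = 0.0984). The gamma subunit eif2s3, which binds GTP and the initiator tRNA, overlapped between groups at 0.31 (SE 0.18, adjusted p = 0.424). The alpha subunit, the target of the stress kinases, has a pair of genes here. The gene with fewer reads, eif2s1a, was at 238 ± 31.0 in wild type and 348 ± 55.6 in mutant pools (SD, n = 3) without overlap, at 0.54 (adjusted p = 0.136). The gene with more reads, eif2s1b, was at 1855 ± 183 and 1773 ± 379, at -0.08 (95% interval -0.48 to 0.32).

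The factors eif2a and eif2d, which carry initiator tRNA by routes other than the trimer, pointed in opposite directions. The value of eif2a was 349.6 ± 31.6 in wild type and 441 ± 82.3 in mutant pools (SD, n = 3), at 0.32 (limma adjusted p = 0.386). The value of eif2d was 105, 135 and 158 in wild type and 91.8, 99.1 and 92.8 in mutant pools. Every mutant pool was lower, but the log2 fold change of -0.47 (SE 0.22) did not pass (limma adjusted p = 0.296). Without both libraries that stood apart eif2d fell, at -0.66 (adjusted p = 0.0253), which is 1 of 2 members called lower in that fit. There, 11.8% of all genes were called lower and 11.8% higher, and per3 level and genotype cannot be told apart.

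Of the eIF3 genes, the subunit h gene eif3hb rose. It was at 95.4, 116 and 124 in wild type and at 179.9, 236 and 213 in mutant pools, 1.88-fold higher on average. Its log2 fold change was 0.90 (SE 0.20, limma, Benjamini-Hochberg adjusted p = 0.0310). The groups were well apart, but the counts were low (101 to 219 reads), and the call ended in every fit with 1 library left out but that lacking wild type replicate 1 (adjusted p between 0.0561 and 0.139). Its paralog eif3ha, with more reads, overlapped between groups, from 969.8 to 1169.7 in wild type and from 1064 to 1660.4 in mutant pools, at 0.27 (adjusted p = 0.492).

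The other eIF3 subunits made 2 sets by their overlap. In 6 further genes the mutant pools all lay above the wild type pools: eif3d, which can bind the cap, eif3g, an RNA-binding subunit, the loosely attached eif3ja and eif3jb, and the large scaffold subunits eif3s10 (eIF3a) and eif3c. Their log2 fold changes were 0.51, 0.56, 0.56, 0.55, 0.44 and 0.31, with limma adjusted p from 0.131 to 0.386, so none of the 6 passed. Over all genes, 11.6% had all mutant pools above all wild type pools. For eif3d the values were 3636, 3697 and 4045 in wild type and 4588, 6472 and 5306 in mutant pools. For eif3s10 they were 7589, 8194 and 7745 against 9809, 11184 and 10958. Mutant replicate 2 was the highest in both, but in eif3s10 it stood next to mutant replicate 3.

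The remaining 8 eIF3 genes besides eif3ha (eif3ba, eif3ea, eif3eb, eif3f, eif3i, eif3k, eif3m and eif3s6ip, the latter known as eIF3l) overlapped between groups, with log2 fold changes of 0.16 to 0.36. In eif3f, for instance, mutant replicates 1 and 3 were at 1694 and 1769, within the wild type range of 1641 to 1875, and mutant replicate 2 was at 2704. The 95% intervals of 15 of the 16 eIF3 genes lay between -1 and 1, and the exception was eif3hb. Without both libraries that stood apart, eif3f and eif3i were at -0.03 and -0.02, and the other 14 stayed positive.

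The member with the largest log2 fold change was eif4ebp3l, a 4E-binding protein that holds eIF4E away from eIF4G and that in zebrafish muscle has been tied to the translation of Mef2ca. It was at 749, 1384 and 1477 in wild type and at 2246, 3727 and 2652 in mutant pools. Wild type replicate 1 was far below the other wild type pools, mutant replicate 2 was the highest, and the groups did not overlap. It was 2.39-fold higher on average, with a log2 fold change of 1.29 (SE 0.27, limma, Benjamini-Hochberg adjusted p = 0.0274). Leaving out wild type replicate 2 ended the call (adjusted p = 0.0755), and likewise it ended when mutant replicate 2 (0.0616) or 3 (0.0869) was left out. Without both libraries that stood apart the log2 fold change was 0.77, smaller but past the threshold (adjusted p = 0.00120, where 11.8% of all genes were called higher).

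The other 4E-binding proteins did not pass. The most closely named gene, eif4ebp3, was at 566 ± 77.8 in wild type and 768 ± 193 in mutant pools (SD, n = 3; 0.42, limma adjusted p = 0.308). The gene eif4ebp1 was at 476, 539 and 568 against 586, 769 and 574, so its groups came close without overlapping (0.28, adjusted p = 0.434). The gene eif4ebp2 overlapped between groups, at 0.11 (95% interval -0.24 to 0.47). The carrier eif4enif1, which takes eIF4E into the nucleus, was at 0.12 (-0.22 to 0.47).

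None of the 6 cap-binding eIF4E genes tested passed. The classical eIF4E pair eif4ea and eif4eb was low in reads (30 to 101 reads per library for eif4eb). The values of eif4eb were 51.9, 29.4 and 36.6 in wild type and 50.6, 109 and 64.9 in mutant pools, at 0.87 (SE 0.35, limma adjusted p = 0.207). The groups overlapped through wild type replicate 1, and mutant replicate 2 was the highest. The gene eif4e1c was likewise high in mutant replicate 2 (228, against 82.4 to 119.9 in the other libraries), at 0.41 (adjusted p = 0.551). The eIF4E relative eif4e2, which binds caps but represses translation, pointed down, at 128, 107 and 113 in wild type and 84.3, 71.1 and 73.2 in mutant pools. Its groups did not overlap, and its log2 fold change of -0.60 (SE 0.21) did not pass (limma adjusted p = 0.151). The genes eif4e2rs1 and eif4e3 overlapped, at 0.18 and 0.09, and both turned negative without wild type replicate 1 (-0.10 and -0.23).

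The helicase genes of eIF4A differed among themselves. The gene with the most reads, eif4a1b, was at 6676 ± 390.0 in wild type and 7398 ± 1401 in mutant pools (SD, n = 3), at 0.13 (95% interval -0.28 to 0.55). Its paralog eif4a1a was at 961, 455 and 643 in wild type and 1008, 1977 and 1020.3 in mutant pools. Wild type replicate 1 was the highest of its group, nearly as high as mutant replicates 1 and 3, and mutant replicate 2 was far above all. The log2 fold change of 0.95 (SE 0.31) did not pass in limma (adjusted p = 0.128). The gene eif4a1a rose with DESeq2 (adjusted p = 0.0273, where 3.35% of all genes were called higher). In limma it also rose without wild type replicate 1, where 3.88% of all genes were called higher. By contrast eif4a2 was at 919.7, 1008 and 1141 in wild type and 687, 888 and 692 in mutant pools, lower in every mutant pool, at -0.44 (SE 0.16, adjusted p = 0.178). Without both libraries that stood apart eif4a2 fell, at -0.64 (adjusted p = 0.00307, where 11.8% of all genes were called lower).

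The relative eif4a3, known as a core part of the exon junction complex rather than of cap-dependent initiation, was at 642, 648 and 740.2 in wild type and 927, 1303 and 975 in mutant pools. Its groups did not overlap, and it lay just outside the threshold in limma (0.64, SE 0.17, adjusted p = 0.0631) but inside it with edgeR (adjusted p = 0.0453, where 2.46% of all genes were called higher).

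Of the helicase cofactors, eif4bb rose. Its values were 801, 810.0 and 886 in wild type and 1125, 1663 and 1361 in mutant pools, with no overlap and the widest spread among mutant pools. It was 1.66-fold higher on average, with a log2 fold change of 0.72 (SE 0.17, limma, Benjamini-Hochberg adjusted p = 0.0432). Of the 6 fits with 1 library left out, only that lacking mutant replicate 1 kept the call (the rest gave adjusted p from 0.0552 to 0.206), and the call also ended with the replicate block (adjusted p = 0.0535, where 2.16% of all genes were called higher). Its paralog eif4ba was at 356 ± 19.3 and 355 ± 26.4 (SD, n = 3), at -0.01 (95% interval -0.34 to 0.33), and eif4h was at 0.05 (-0.32 to 0.43).

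The eIF4G scaffolds did not pass in limma, though in 3 of the 5 every mutant pool was above every wild type pool. Over all genes, 11.6% had this separation. The gene eif4g2b, a relative of eIF4G that lacks the eIF4E-binding part, was at 2761, 2951 and 2772 in wild type and 3885, 4286 and 3781 in mutant pools. The spread within each group was small, and the log2 fold change was 0.49 (SE 0.15, limma adjusted p = 0.0947). The gene eif4g1a was at 1720.5, 1336 and 1320.1 in wild type and 1884, 1880.2 and 2231 in mutant pools, with wild type replicate 1 close to the mutant range (0.46, SE 0.16, adjusted p = 0.159). The third was eif4g3b, at 0.24, while eif4g2a and eif4g3a overlapped at 0.13 and -0.11.

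Outside these complexes, eif6 rose. This factor, needed for making the large ribosomal subunit and for keeping it free, was at 449, 478 and 535 in wild type and 708, 1073 and 789 in mutant pools. All mutant pools were above all wild type pools, and mutant replicate 2 was the highest. It was 1.76-fold higher on average, with a log2 fold change of 0.79 (SE 0.18, limma, Benjamini-Hochberg adjusted p = 0.0371). The call was kept without mutant replicate 2 and ended without any of the others (adjusted p between 0.0530 and 0.174).

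The subunit joining GTPase eif5b was the member nearest to the threshold on its outer side, at 843, 741 and 869 in wild type and 1102, 1352 and 1299 in mutant pools (0.61, SE 0.15, limma adjusted p = 0.0505). Its groups did not overlap. The GTPase activator eif5 was at 1838 ± 166 and 2228 ± 438 (SD, n = 3), at 0.26 (adjusted p = 0.477), and wild type replicate 3 (1937) and mutant replicate 3 (1938) were nearly equal.

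The translation factor eif5a, which helps the ribosome through difficult stretches of peptide, was at 9215, 9800.0 and 10159 in wild type and 9905, 14933 and 10895 in mutant pools. The groups overlapped, and mutant replicate 2 alone was far above the rest (0.27, SE 0.21, limma adjusted p = 0.542). Its relative eif5a2 was at 1067 ± 16.8 and 1072 ± 258 (SD, n = 3), at -0.02 (95% interval -0.42 to 0.38). Of the genes with symbols beginning eif1, eif1axa was at 104, 57.9 and 71.2 in wild type and 106, 133 and 116 in mutant pools (0.64, SE 0.26, limma adjusted p = 0.218). For eif1axa, wild type replicate 1 was almost level with mutant replicate 1. The genes eif1axb, eif1b and eif1ad overlapped between groups, at 0.45, 0.21 and 0.22, and the last 2 of these were negative without both libraries that stood apart (-0.12 for eif1b and -0.17 for eif1ad).

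**Figure D4:**
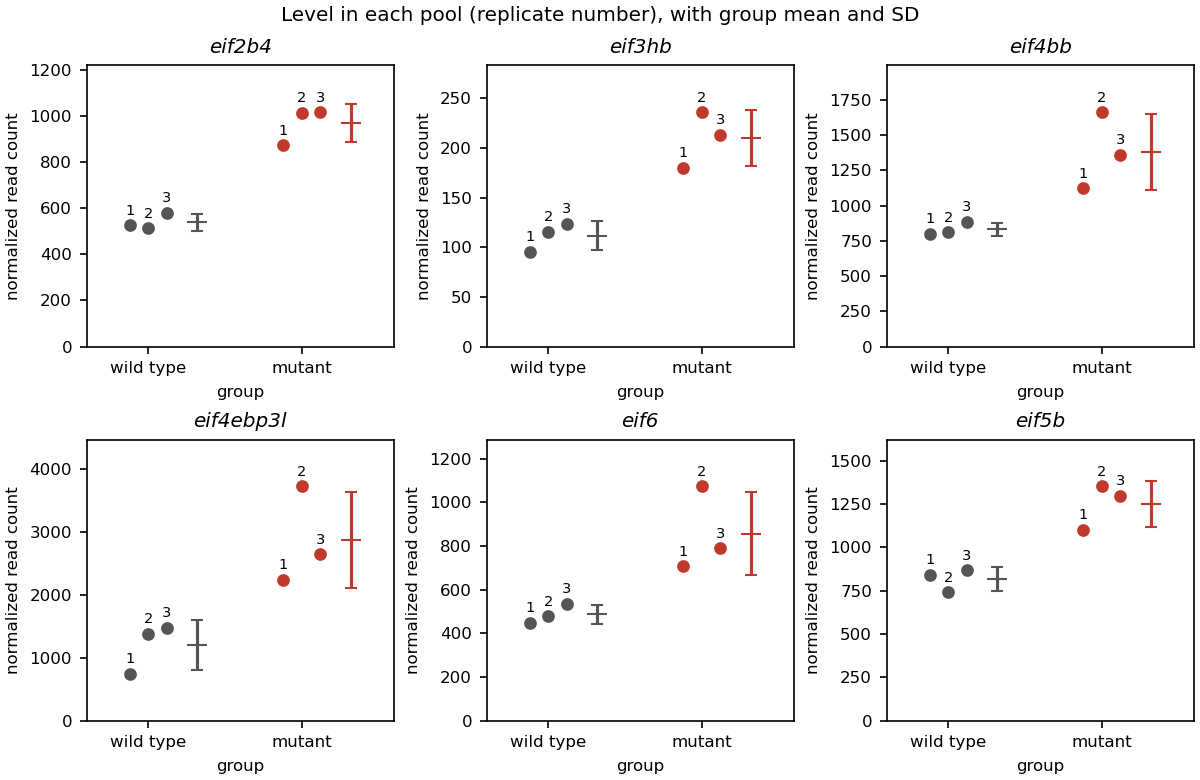
Normalized read counts (vertical axes, from 0) of eif2b4, eif3hb, eif4bb, eif4ebp3l, eif6 and eif5b in each pool, numbered by replicate, with the group mean and SD (bar, n = 3). In each gene the 3 mutant pools lie above the 3 wild type pools, and mutant replicate 2 is the highest except in eif2b4.

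The count of 5 rested on several libraries at once. With 1 library left out it was 4, 0 and 2 when the library was wild type replicate 1, 2 or 3, and 3, 2 and 0 when it was mutant replicate 1, 2 or 3. Over all genes the shares called higher in these fits were, in the same order, 3.88%, 0.683%, 1.13%, 1.15%, 1.84% and 0.679%. All 5 log2 fold changes were positive in each of these fits. This had to be so, since in each of the 5 every mutant pool lay above every wild type pool. Without the intensity trend in limma none of the 5 passed (0 called, adjusted p from 0.0623 to 0.140, where 1.2% of all genes were called higher). With values summed over transcripts 2 passed, eif2b4 and eif4ebp3l, where 2.08% of all genes did. Count-based tests on recovered reads called more members: 7 rose with edgeR (where 2.46% of all genes did) and 13 with DESeq2 (where 3.35% did). Both tests added eif4a3 and eif5b to the 5 of the main fit. DESeq2 alone of these tests also added eif2s2, eif3d, eif3g, eif3s10, eif4a1a and eif4g2b (adjusted p from 0.0199 to 0.0468). The count was 7 with the RLE factors of edgeR or with limma-voom (2.52% and 2.54% of all genes) and 6 with a pseudocount of 5, a minimum value of 10 or every transcript by itself (2.38%, 2.6% and 2.17%). Without both libraries that stood apart 12 members rose and 2 fell, where 11.8% of all genes rose and 11.8% fell. In that fit per3 level and genotype cannot be told apart. With per3 as a covariate 17 rose, where 5.25% of all genes did. With scaling to total reads 12 rose, where 2.81% of all genes did.

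The balance between paralogs of 1 factor differed between the groups in several pairs. For 10 pairs of genes whose symbols differ only in a final a or b, the share of the b gene in the summed value of the pair was computed in each library, which cancels any shift common to both. In 6 of the 10 pairs the shares of the mutant and wild type pools did not overlap. Over all pairs of tested genes named in that way, not all of which are paralogs, 24.5% did not overlap, and 28.5% of those with means of 50 or more for both genes. The shares of single pairs are given as a description and were not tested. Reads that match both copies may have been split between them in a way the table cannot show.

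The gene eif4bb made up 70.5%, 68.9% and 70.5% of the eIF4B pair in wild type and 76.1%, 81.3% and 80.5% in mutant pools. The gene eif3hb made up 8.95%, 9.73% and 9.56% of the eIF3h pair in wild type and 14.5%, 12.4% and 14.9% in mutant pools. Mutant replicate 2, highest for the level of eif3hb, was thus lowest among mutant pools for its share. In the pair of eIF2 alpha genes, eif2s1b made up 88.6% ± 0.659 in wild type and 83.5% ± 0.802 in mutant pools (SD, n = 3). The other pairs without overlap were eif4g3b (28.7% ± 0.228 against 34.0% ± 2.54), eif4g2b (83.7% ± 1.18 against 86.8% ± 1.16) and eif4eb (35.3% ± 4.45 against 44.6% ± 5.81). The last 2 of these were apart by little: the highest wild type and lowest mutant shares were 85.1% and 85.6% for eif4g2b and 40.4% and 40.6% for eif4eb, whose counts were 30 to 101 reads. The shares of eif1axb, eif3eb, eif3jb and eif4a1b overlapped.

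Of the pairs with other names, eif4ebp3l with eif4ebp3 was also without overlap. The gene eif4ebp3l made up 61.0%, 70.2% and 70.1% of its sum with eif4ebp3 in wild type and 78.8%, 79.2% and 78.8% in mutant pools. The mutant pools were nearly equal in this share, although their levels of eif4ebp3l ran from 2246 to 3727. The gene eif5a2 made up 9.90% ± 0.396 of its sum with eif5a in wild type and 8.26% ± 0.748 in mutant pools (SD, n = 3), again without overlap.

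Some members had several annotated transcripts. The 60 members had 96 transcripts, 21 members had more than 1, and no 2 transcripts of a member held the same reads in all libraries. The 4 transcripts of eif2b4 had log2 fold changes of 0.84 to 0.87, and each passed when every transcript was tested by itself (limma adjusted p from 0.00899 to 0.00941). Of the 3 transcripts of eif4bb, at 0.68 to 0.72, that with the highest mean passed (adjusted p = 0.0425) and the others narrowly did not (0.0522 and 0.0524). Both transcripts of eif5b passed there (0.0429 and 0.0440). The widest range was that of the 2 transcripts of eif2b1, at 0.05 and 0.22, and the transcripts of eif4h (-0.01 to 0.10) and eif4ba (-0.01 to 0.03) differed in sign, with none of these past the threshold. Since isoforms share reads, they are not independent measurements.

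Of the 60 members, 16 had in the authors' deposited table a q-value under 0.05 and a positive log2 fold change, and 1, eif4a2, had one with a negative change. Over the same choice of 1 transcript per gene, the authors' deposited table holds 4.7% of genes higher and 4.28% lower at that bound. For eif2b4 the authors' deposited table gives a log2 fold change of 0.84 with a q-value of 5.44e-09, and for eif4a2 one of -0.44 with a q-value of 0.0432. Which test gave these values is, in the sources used here, not given.

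Genes that act beside the initiation factors were taken from 6 lists, and 134 of their 136 genes were found in the table. In the list on control of eIF2 and its stress targets, 2 of 26 rose, beside 2.31% of all genes, and the median log2 fold change was 0.21. They were ddit4, a stress-induced inhibitor of mTORC1, from 661 ± 65.9 to 1396 ± 114 (SD, n = 3; 1.08, SE 0.15, limma, Benjamini-Hochberg adjusted p = 0.00379), and chac1, a glutathione-degrading target of the Atf4 pathway (0.91, SE 0.21, adjusted p = 0.0356). Of the 26 genes 19 were positive. Those that pointed down included mthfd2, psat1 and phgdh, at -0.78, -0.58 and -0.46, none past the threshold in limma. When wild type replicate 1 and mutant replicate 2 were left out, these were called lower (-0.97, -1.01 and -0.85). There ddit4, chac1, asns, cth and slc7a5 were called higher, and 11.8% of all genes were called in each direction. In that fit per3 level and genotype cannot be told apart. Of the genes that carry the Atf4 pathway itself none passed. The transcription factor atf4a was at 1506, 2088 and 2415 in wild type and 2381, 3634 and 2403 in mutant pools, with overlap (0.48, adjusted p = 0.293), and atf4b was at 0.12 (95% interval -0.24 to 0.48). Likewise ddit3, its target in cell death, was at 0.15 (-0.29 to 0.58). Of the eIF2 kinases, eif2ak1 overlapped at 0.10. The endoplasmic reticulum kinase eif2ak3 was at 399, 471 and 465 in wild type and 363, 319 and 358 in mutant pools, lower in each mutant pool without passing (-0.36, adjusted p = 0.252). The kinase eif2ak2 was low, with 1 to 24 reads per library. The eIF2 kinase eif2ak4, also on the list, was not found by symbol, so no value is given for it.

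In the list on control of cap binding and mTORC1 none of 26 genes passed in limma (0 higher and 0 lower), nor with edgeR or DESeq2. Over all genes, 2.31% were higher and 2.18% lower in limma, 2.46% and 2.21% with edgeR, and 3.35% and 3.08% with DESeq2. A count of 0 of 26 lies near these shares. At an unadjusted p under 0.05 in limma, 2 of the 26 were higher and 2 lower, beside 9.03% and 9.17% of all genes. The median was 0.04. Among elongation, termination and recycling factors 2 of 26 rose, beside 2.31% of all genes, and the median was 0.15. These were abce1, which splits ribosomes for a new round, from 950.3 ± 19.6 to 1773 ± 251 (SD, n = 3; 0.89, SE 0.15, limma adjusted p = 0.0112), and the release factor etf1b (0.87, SE 0.20, adjusted p = 0.0399). Among helicases and partners of initiation 3 of 20 rose, beside 2.31% of all genes, and the median was 0.09. The ATP-binding protein abcf1, which associates with eIF2, went from 621 ± 71.8 to 1501 ± 199 (1.27, SE 0.16, adjusted p = 0.00262), and ddx3a, an RNA helicase that aids scanning, was at 0.94 (SE 0.16, adjusted p = 0.0112).

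The list with the highest median, 0.46, was that of the cytosolic aminoacyl-tRNA synthetases, which charge tRNAs with amino acids. There 6 of 24 rose, beside 2.31% of all genes. The list also holds aimp1, aimp2, eef1e1 and zgc:101853, which are not named as synthetases. Their log2 fold changes were 0.49, 0.55, -0.47 and -0.40, and none of them passed in limma. Of all 24 genes, 22 were positive. The joint glutamate and proline enzyme eprs was at 3325, 3633 and 3774 in wild type and 7864, 6743 and 9026 in mutant pools (1.13, SE 0.17, limma, Benjamini-Hochberg adjusted p = 0.00621). Unlike most initiation factors, it was lowest of the mutant pools in replicate 2. The leucine enzyme larsb was at 251, 204 and 227 in wild type and 378, 575 and 474 in mutant pools (1.05, SE 0.19, adjusted p = 0.0138).

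Among the 11 mitochondrial translation factors 1 rose and 2 fell, beside 2.31% and 2.18% of all genes, and the median was 0.22. The elongation factor gfm1 rose from 152 ± 11.8 to 263 ± 14.4 (SD, n = 3; 0.79, SE 0.17, limma adjusted p = 0.0278). The recycling factors mrrf and gfm2 fell by 1.40 and 0.98 on the log2 scale (SE 0.22 and 0.23, limma adjusted p = 0.00791 and 0.0415). The members that fell both take part in freeing mitochondrial ribosomes after termination.

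**Figure D5:**
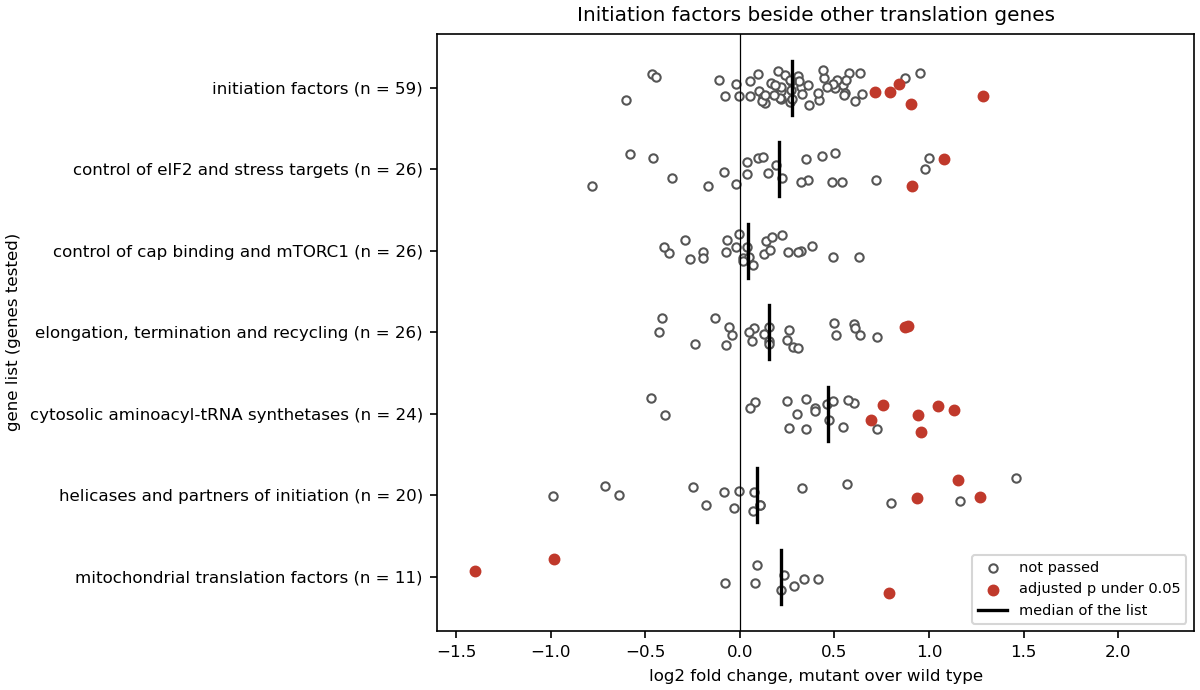
Log2 fold changes, mutant over wild type (horizontal axis), of the genes tested in each list (rows), with filled points for adjusted p under 0.05 and a bar at the median; points are spread vertically only to separate them. The medians are 0.28 for initiation factors, 0.46 for aminoacyl-tRNA synthetases and 0.04 for control of cap binding and mTORC1.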

How the data were processed

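Polyadenylated RNA of 6 pools of larvae was read as paired 150 bp reads, per the labels' protocols. The authors deposited 1 signal value per transcript and library (45602 transcripts), here called the normalized read count, and beside it their log2 fold change, p-value and q-value, per the file headers. Per the submitters' processing notes the build was GRCz11. Not given in the sources used here were the aligner, counting tool and strandedness, nor how reads matching several isoforms or copies were assigned. Each deposited value was a whole multiple, within 0.001, of the smallest positive value of its library (100% of values), so reads could be recovered; in wild type replicate 3 that step was 0.990, which is hard to tell from rounding. Recovered reads over all transcripts, where isoforms share reads, ranged from 17023269 to 19156581 per library.

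The main test was limma 3.58.1 in R 4.3.3 on log2(value + 1), with an intensity trend, for genes reaching 1 in 3 or more libraries. This scale understates the change of low genes. Alternatives included edgeR 4.0.16 and DESeq2 1.42.0 on recovered reads. Intervals are 95% intervals of limma. The limma, edgeR and DESeq2 fits were also tested on simulated data. There the spread beyond sampling was the same for every gene and no library stood apart. That test therefore does not cover the differences between these pools. The members and lists were chosen with earlier results of these data known. Genes named by rule were members past the threshold, the members of highest mean, smallest p and largest change in each class, and the 2 of smallest p in each direction of a list; other members were named after their values were seen. Deviations of same-numbered replicates from their group means correlated at r of 0.18, 0.18 and -0.39 across 19277 genes. Pools with different numbers gave r from -0.41 to 0.42. With 3 pools a group these values cannot show whether numbers pair the pools, and the labels do not say.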

Additional observations from a re-analysis of the deposited data

How the results depend on the processing

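Of 21 alternatives, 2 were added after the table was opened: per3 as a covariate and scaling to total reads. The fit without both libraries that stood apart also depends on the data, since their principal components here define these libraries. The members' median stayed positive in all 21, from 0.11 to 0.39. Calls of the 5 genes held in 18 (eif2b4), 14 (eif3hb), 13 (eif4bb), 17 (eif4ebp3l) and 14 (eif6) of them. Where a count moved, the cause was not tested.

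The number of members that rose, 5 in the main test, was 13 with DESeq2, 2 with sums over transcripts, 0 without the intensity trend, 12 without both libraries that stood apart, 17 with the per3 covariate and 12 with scaling to total reads. For eif2 genes these counts were 2 with DESeq2, 0 without the trend, 2 without both libraries, 4 with per3 and 2 with total reads. For eif3 genes they were 4 with DESeq2, 0 with sums, 0 without the trend, 5 with per3 and 4 with total reads. For eif4 genes they were 5 with DESeq2, 1 with sums, 0 without the trend, 6 without both libraries, 5 with per3 and 4 with total reads. For other factors they were 2 with edgeR (TMM or RLE), DESeq2, limma-voom, a pseudocount of 5, a minimum of 10, every transcript by itself or total reads, 0 with sums or without the trend, and 3 without both libraries or with per3. Without both libraries 2 members fell, 1 eif2 gene and 1 eif4 gene. Over all genes, 273 rose without the trend, 2599 rose and 2592 fell without both libraries, and 1198 rose and 899 fell with per3. The shares of all genes that rose, to set beside these counts, were 3.35% with DESeq2, 2.08% with sums and 1.2% without the trend. They were 11.8% without both libraries (11.8% fell), 5.25% with per3 and 2.81% with total reads. With edgeR (TMM, RLE) and limma-voom they were 2.46%, 2.52% and 2.54%. With a pseudocount of 5, a minimum of 10 and every transcript they were 2.38%, 2.6% and 2.17%.

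With the replicate block 4 members rose and 1 eif4 gene did, since eif4bb no longer passed; no other call of a member was lost. The labels do not say whether shared numbers pair the pools. Leaving out 1 library gave 0 to 4 members that rose, 0 to 1 eif2, eif3 and other genes and 0 to 2 eif4 genes. Over all genes it gave 152 to 872 higher (0.679% to 3.88%) and 99 to 772 lower.

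Signs turned in 18 genes, none past the threshold (0). With 1 library left out the log2 fold change ran from -0.0553 to 0.1686 for eif2b1, -0.0896 to 0.2052 for eif2b3, -0.2501 to 0.0050 for eif2s1b, -0.0172 to 0.2146 for eif4a1b, -0.0609 to 0.0458 for eif4ba, -0.0999 to 0.3834 for eif4e2rs1, -0.2254 to 0.2895 for eif4e3, -0.0052 to 0.2042 for eif4ebp2, -0.0894 to 0.1301 for eif4h, -0.2068 to 0.1113 for eif5a2, -0.0271 to 0.2380 for eif2ak1, -0.0104 to 0.1881 for atf4b, -0.0767 to 0.2845 for ddit3 and -0.2397 to 0.0478 for znf469. Without both libraries it was -0.1662 for eif1ad, -0.1211 for eif1b, -0.1291 for eif2b1, -0.0648 for eif2b3, -0.0312 for eif3f, -0.0173 for eif3i, -0.0654 for eif4a1b, -0.2268 for eif4e2rs1, -0.3152 for eif4e3, -0.0966 for eif4h, -0.0479 for eif2ak1, -0.0419 for atf4b, -0.0758 for ddit3 and 0.1291 for znf469. For eif5a2 it was 0.0024 with edgeR and TMM, 0.0004 with RLE and with DESeq2 and 0.0528 with per3. For eif4ba it was 0.0135 with sums, 0.0325 with every transcript, 0.0364 with per3 and 0.0120 with total reads, and for eif2s1b 0.0172 with per3.

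With 3 pools a group, the SE of a member's log2 fold change was 0.15 to 0.35, and 48 of 59 intervals lay between -1 and 1.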
